A study of Mus musculus with 48 samples.

Results

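Gene expression was compared between mice fed twice-a-night (TAN) and ad-lib mice in the inguinal white adipose tissue (iWAT) libraries labelled 8 PM. TAN mice received food in an early and a late window of the dark phase, and ad-lib mice ate freely. The 4 TAN and 4 ad-lib libraries whose column names carry 8PM were taken, 8 of the 48 libraries of a series that covers 6 labelled times in both diets. All mice were C57BL/6 per the labels (C57BL/6J per the study's methods), 8 months old and, per those methods, male. They carried no engineered allele. The diets differed in when food was given, and the study describes TAN mice as eating slightly less. The animal names in the titles run from 1 to 4 in each diet, so each library is taken as a separate animal. Where this does not hold, p-values measure only the spread between these samples. The series text calls the material the stromal vascular fraction of the depot, whereas the study describes whole subcutaneous fat. Adipocyte markers were high in all 8 libraries, among them Adipoq, with 551 CPM or more (CPM, counts scaled to the size of each library). The hour is also given in 2 ways. The count table and the sample labels say 8 PM, and the study's supplementary expression tables list the same 8 libraries under 8 AM of the same animals. Matched over 966 genes, the values of all 48 libraries were listed 12 h apart in this way. The labels of the count table are used below, and values for the libraries labelled 8 AM are given beside the main counts.

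White adipocytes store triglyceride after a meal and release fatty acids between meals. Lipoprotein lipase on the capillary wall takes up circulating fat, and ANGPTL4 inhibits it. A clock runs in the same cells. CLOCK or NPAS2 pairs with BMAL1, the product of Arntl, and the pair switches on Per, Cry, Nr1d1 and output genes such as Dbp, whose products feed back on it. At the labelled hour the dark phase begins, and TAN mice have passed the light phase without food.

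All 4 TAN libraries at 8 PM held less RNA of the clock activators Clock and Arntl, of the lipase inhibitor Angptl4 and of genes above 8 kb than any ad-lib library. Summed proteasome RNA was higher in all 4, whereas ribosomal protein RNA was far higher in TAN 1 and TAN 2 and lay within the ad-lib range in TAN 4. Of 19977 genes tested, 237 were called higher in TAN (1.19%) and 1167 were called lower (5.84%). A call needs a Benjamini-Hochberg adjusted p under 0.05 in edgeR's quasi-likelihood test and a log2 fold change beyond 1 in either direction. The median log2 fold change of all genes tested was -0.10. Without regard to fold size 752 genes were higher (3.76%) and 1581 were lower (7.91%). The 8 values did not overlap between the diets for 91 of the genes called higher (0.456% of all genes) and 1033 of those called lower (5.17%). All 4 TAN libraries had 0 counts for 408 of the genes called lower. For such genes only a bound on the fold is given, against a floor of 3 counts in each TAN library. With genes held to at least 10 counts in every library, the counts were 378 higher and 491 lower, and a fit of the 8 libraries alone called 5 higher and 50 lower. In the libraries labelled 8 AM, 2 genes were called higher (0.01%) and 1 lower (0.00501%), and 204 and 231 passed the fold rule with an unadjusted p under 0.05.

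The TAN libraries did not form one group. TAN 1 and TAN 2 resembled each other, as did TAN 3 and TAN 4, with Spearman correlations across tested genes of 0.946 and 0.931. Across these pairs the correlations were 0.822 to 0.899, below all those among ad-lib libraries, which were 0.959 to 0.977. Totals were 18797614 to 23218154 counts in ad-lib libraries and 20364828 to 25440243 in TAN libraries. Leaving out TAN 1 and TAN 2 gave 504 genes higher and 1118 lower, and leaving out TAN 3 and TAN 4 gave 865 and 3380. Only 38 of the 237 and 441 of the 1167 genes were called again without TAN 1 and TAN 2. Values are therefore given for every library, in the order ad-lib 1 to 4 and TAN 1 to 4.

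Clock activator RNA was lower in both pairs of TAN libraries. Clock (ENSMUSG00000029238, chr5:76209868-76304792), the DNA-binding partner of BMAL1, stood at 85.6, 108, 72.0 and 94.3 CPM in ad-lib libraries and at 30.3, 22.7, 25.6 and 40.6 CPM in TAN libraries. The groups were far apart, and every TAN value was also below all 40 libraries of the other times, the lowest of which held 52.0 CPM. The log2 fold change was -1.59 ± 0.28 (SE, n = 4 a group), with an adjusted p of 9.36e-04. With a correction for gene length it was -0.87 and the call was lost. Arntl, which encodes BMAL1, stood at 20.4, 17.9, 14.9 and 8.04 CPM in ad-lib and at 5.77, 7.14, 2.94 and 1.46 CPM in TAN libraries. Its groups did not overlap either, and the log2 fold change was -1.82 ± 0.37 (SE) with an adjusted p of 0.00321. The labelled 4 PM libraries of TAN mice held Arntl at a like level, 4.17 ± 2.31 CPM (SD, n = 4), whereas Clock at that time was 84.1 ± 25.4 CPM. Npas2, the alternative partner of BMAL1, was counted in all 4 ad-lib libraries at 0.174 to 0.530 CPM and in no TAN library. It was at least 1.98-fold lower against the floor.

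**Figure D1:**
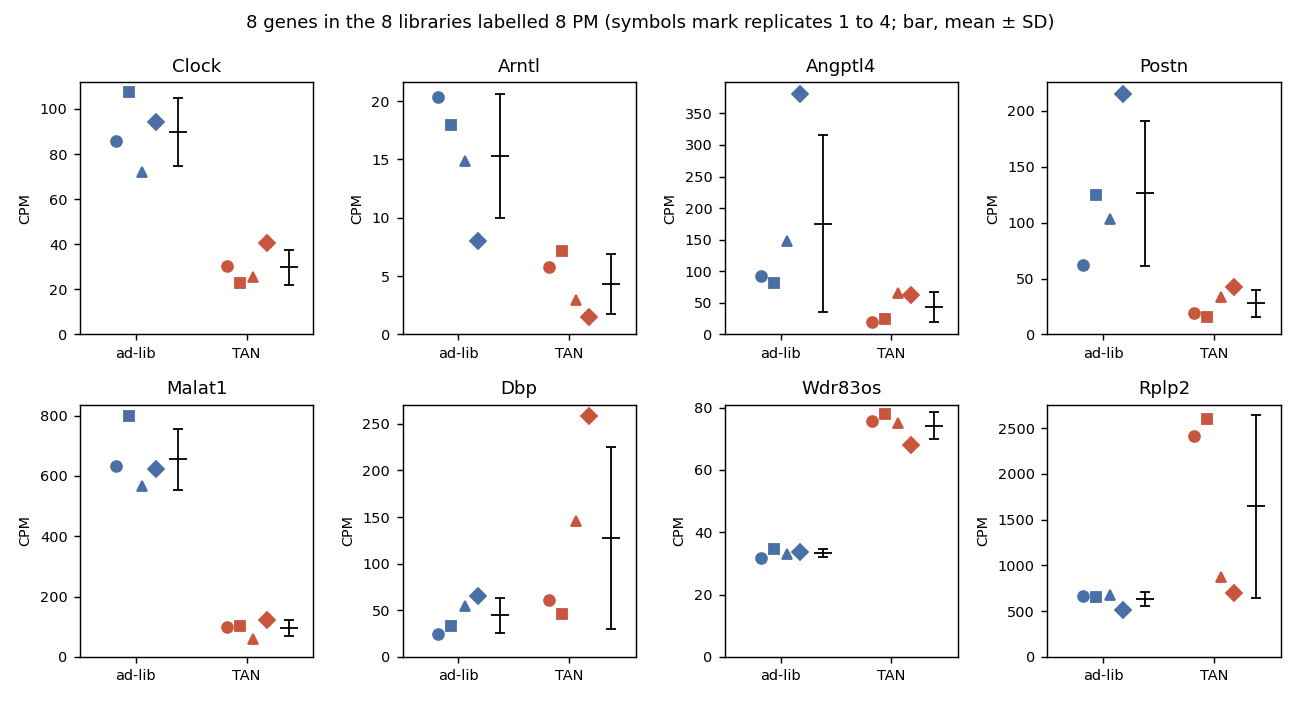
CPM of 8 genes in the 4 ad-lib and 4 TAN libraries labelled 8 PM, on linear vertical axes that start at 0 and differ between panels; symbols mark libraries 1 to 4 and bars are means with SD. Clock lies between 22.7 and 40.6 CPM in TAN and between 72.0 and 108 CPM in ad-lib libraries, and Rplp2 separates TAN libraries 1 and 2 from the other 6.

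The repressor arm and the outputs of the clock did not move as one. Of 20 core clock genes tested, 3 were called lower (Clock, Arntl and Npas2), against 5.84% of all genes, and 0 higher. With the length correction 2 were lower, and in the fit of the 8 libraries alone 1 was. The median log2 fold change of the list was -0.05, against -0.10 for all genes tested. The period genes Per1, Per2 and Per3 had log2 fold changes of 0.55 ± 0.50, -0.47 ± 0.57 and -1.14 ± 0.54 (SE), with adjusted p-values of 0.519, 0.648 and 0.157. The cryptochrome genes Cry1 and Cry2 stood at 0.42 ± 0.26 and -0.48 ± 0.36 (SE), with adjusted p-values of 0.293 and 0.412. Nr1d1, which encodes the BMAL1 repressor REV-ERBα, was at 12.0, 13.4, 20.02 and 24.8 CPM in ad-lib and at 17.0, 13.1, 44.5 and 54.3 CPM in TAN libraries, with an adjusted p of 0.282. Cry2 was at 26.9, 30.3, 33.2 and 49.7 CPM in ad-lib and at 10.5, 9.14, 34.7 and 46.1 CPM in TAN libraries. These repressors did not differ beyond the spread between libraries. The intervals are wide enough to hold changes of more than 1 log2 unit for Per1, Per2, Per3, Cry2 and Nr1d1. Dbp, a PAR-domain factor switched on by CLOCK and BMAL1, was at 25.0, 32.9, 54.8 and 65.2 CPM in ad-lib and at 60.6, 45.6, 145 and 259 CPM in TAN libraries. The groups overlapped, and most of the excess lay in TAN 3 and TAN 4. Its log2 fold change of 1.52 ± 0.50 (SE, adjusted p 0.0416) dropped to 0.26 without those libraries, and the call was lost without any one of ad-lib 1, 2 or 3 or TAN 3 or 4 (0.92 to 1.65). It was the only one of 9 clock output genes called (11.1% higher, against 1.19% of all genes).

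The TAN effects on Clock and Arntl at 8 PM differed from their means over the other 5 times. Averaged over the other 5 times, the log2 difference of Clock between the diets was 0.01, so the effect at 8 PM differed from that mean by -1.60 ± 0.30 (SE, adjusted p 0.00402). For Arntl the difference from the mean of the other times was -1.57 ± 0.40 (SE, adjusted p 0.0209). At the neighbouring 4 PM, however, Arntl was mostly lower in TAN as well. It stood there at 8.51, 6.64, 13.4 and 11.2 CPM in ad-lib and at 7.57, 3.46, 3.24 and 2.40 CPM in TAN libraries. For Dbp it was 1.496 ± 0.54 (SE, adjusted p 0.0854), which missed the threshold. In ad-lib mice mean Dbp was highest at the labelled 4 PM, with 102 ± 19.9 CPM (SD, n = 4), and TAN mice had their highest mean at the same time, with 154 ± 58.0 CPM. At 8 PM the mean was 44.5 ± 18.7 CPM in ad-lib and 128 ± 97.9 CPM in TAN mice. Nr1d1 had its highest mean at 4 PM too, with 92.3 ± 26.5 CPM in ad-lib and 138 ± 75.6 CPM in TAN mice. Both genes had their peak label in common between the diets.

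**Figure D2:**
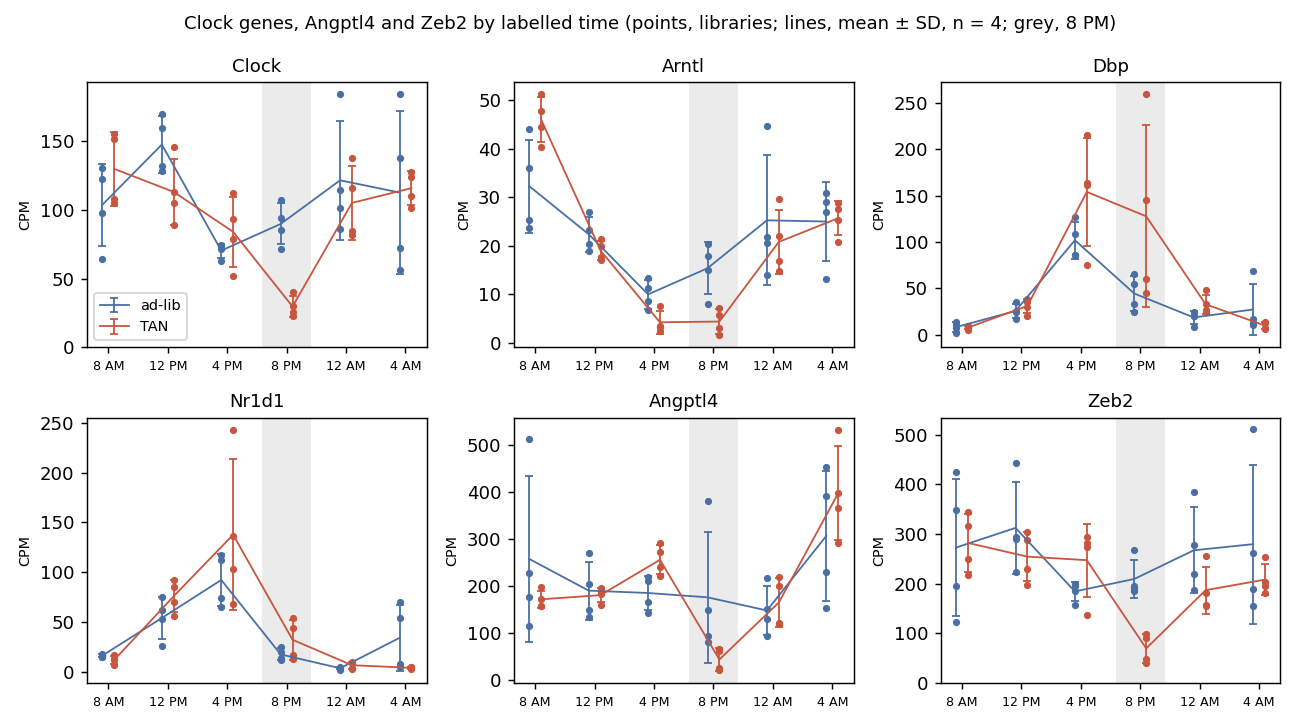
CPM of Clock, Arntl, Dbp, Nr1d1, Angptl4 and Zeb2 at the 6 labelled times in ad-lib and TAN libraries; points are libraries, lines join the means of 4, bars are SD and grey marks 8 PM. TAN means of Clock, Angptl4 and Zeb2 are lowest at 8 PM, at 29.8, 43.0 and 69.5 CPM.

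Among lipid genes the clearest change was in Angptl4, the secreted inhibitor of lipoprotein lipase that fasting and glucocorticoids are known to raise. Angptl4 (ENSMUSG00000002289, chr17:33773750-33781575) was at 92.3, 80.7, 148 and 381 CPM in ad-lib and at 19.9, 24.7, 65.9 and 61.7 CPM in TAN libraries. Every TAN library was below every other library of the series, the lowest of which at another time held 92.2 CPM. The log2 fold change was -2.03 ± 0.42 (SE, adjusted p 0.00341), and it differed from the mean effect at the other 5 times, 0.07, by -2.10 ± 0.45 (SE, adjusted p 0.0110). Lpl, the lipase itself, was at 2475, 3301, 3792 and 7087 CPM in ad-lib and at 969, 596, 1188 and 2362 CPM in TAN libraries. Its 8 values did not overlap, but with a log2 fold change of -1.70 ± 0.60 (SE) it missed the threshold at an adjusted p of 0.0552. Of 15 fatty acid uptake genes Angptl4 was the only one called (6.67% lower, against 5.84% of all genes).

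Genes of de novo lipogenesis, which make fatty acids from sugar, were not called in either direction at 8 PM. None of 13 passed the test in edgeR, 0 of them at an adjusted p with any fold change either, and their median log2 fold change was 0.41. The values split with the library pairs. Acly, which makes cytosolic acetyl-CoA from citrate, was at 272, 468, 259 and 550 CPM in ad-lib and at 230, 163, 451 and 876 CPM in TAN libraries. Its log2 fold change was 0.15 ± 0.52 (SE, adjusted p 0.889). Fasn, the fatty acid synthase, reached 1.03 ± 0.54 (SE, adjusted p 0.204). This was unlike the other times, at which the list's median log2 difference was 1.72. The effect on Acly at 8 PM differed from its mean at the other 5 times, 2.40, by -2.25 ± 0.58 (SE, adjusted p 0.0224). For Acss2, which makes acetyl-CoA from acetate, that difference was -1.73 ± 0.54 (SE, adjusted p 0.0456), and for the desaturase gene Scd2 it was -1.85 ± 0.40 (SE, adjusted p 0.0110). Of the 13 genes 4 were called lower in this test of the difference, in which 3.16% of all genes were. Mean Acly in TAN mice was 430 ± 322 CPM (SD, n = 4) at 8 PM and between 1807 and 2975 CPM at the other times.

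The remaining metabolic lists had few calls. In each of triglyceride synthesis (14 tested), lipolysis and lipid droplet (18), fatty acid oxidation (23) and the citrate cycle (22), 0 genes were called, with medians of 0.22, 0.23, 0.10 and 0.27. Of 19 beige and thermogenic genes 1 was called lower (5.26%, against 5.84% of all genes). This was Ppargc1a, the coactivator of mitochondrial and thermogenic programmes. It was at 6.25, 8.52, 12.4 and 25.0 CPM in ad-lib and at 1.42, 2.25, 4.97 and 9.01 CPM in TAN libraries. The groups overlapped, and the log2 fold change was -1.56 ± 0.49 (SE, adjusted p 0.0341). The call was lost without any one of ad-lib 3 or 4 or TAN 1, 2 or 3 (-1.63 to -1.04). The median of the thermogenic list was 0.12. Lep, the adipocyte hormone leptin, was at 679, 776, 479 and 622 CPM in ad-lib and at 113, 93.8, 1089 and 2260.3 CPM in TAN libraries. TAN 1 and TAN 2 lay below and TAN 3 and TAN 4 above all ad-lib libraries, and the adjusted p was 0.672. In a list of 20 metabolic elasticity genes, which the study took from earlier work, 1 was higher and 1 was lower, against 1.19% and 5.84% of all genes. These were Mvd, a cholesterol synthesis enzyme, with a log2 fold change of 1.10 ± 0.31 (SE, adjusted p 0.0197), and the imprinted zinc finger gene Peg3, with -2.27 ± 0.67 (SE, adjusted p 0.0253). Each call was lost in 4 of the 8 fits that leave out 1 library.

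Cytosolic ribosomal protein genes had many calls, all higher, and these rested on TAN 1 and TAN 2. Ribosomal proteins join ribosomal RNA to form the small and large subunits that translate messenger RNA. Their mRNAs are short, and many begin with a run of pyrimidines that is known to place their translation under nutrient control. Of 76 genes 50 were called higher, against 1.19% of all genes, 0 were lower, and the median log2 fold change was 1.28. Summed over the list, ad-lib libraries held 51346, 52701, 54136 and 38125 CPM and TAN libraries held 179851, 187239, 73717 and 38310 CPM. TAN 1 and TAN 2 thus lay far above all ad-lib libraries, TAN 3 somewhat above them and TAN 4 among them. All TAN values were above all ad-lib values for 2 of the 76 genes, a smaller share than the 4.55% of all genes. Without TAN 1 and TAN 2 together 0 of the 76 were called, without TAN 1 alone 1, without TAN 2 alone 3, without 1 ad-lib library 7 to 15, and without TAN 3 and TAN 4 together 73. The count was 0 in the fit of the 8 libraries alone, 12 with the length correction, 16 with voom and 17 without a filter on low counts. It was 58 with RLE scaling, 65 with at least 10 counts in every library and 68 with DESeq2. T cell markers were highest in the same 2 libraries. They summed to 3349 and 3516 CPM there, against 465 to 1203 CPM in ad-lib libraries. With the lymphocyte marker level as a covariate, 69 of the 76 ribosomal genes were called higher. The part of T cell markers alone in the ribosomal result was not tested.

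Rplp2, an acidic protein of the ribosomal stalk, was at 667, 659, 681 and 512 CPM in ad-lib and at 2415, 2606, 878 and 696 CPM in TAN libraries. All TAN values were above all ad-lib values, and the log2 fold change was 1.39 ± 0.36 (SE, adjusted p 0.0136). Rpl26 and Rpl27, proteins of the large subunit, rose by 1.41 ± 0.37 and 1.46 ± 0.39 (SE), with adjusted p-values of 0.0153 and 0.0162. Calls were lost without TAN 1 for all 3 of these genes and without TAN 2 for Rplp2 and Rpl27. Rpl29 rose by 1.35 ± 0.30 (SE, adjusted p 0.00598). Genes of this family have many processed pseudogenes, and how the counting split reads among such copies is not given in the sources used here, so single values are uncertain. Of 101 ribosomal protein pseudogenes, picked by symbol after their values were seen, 18 were called higher and 0 lower, against 1.19% and 5.84% of all genes.

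Many mRNAs of this family begin with the pyrimidine run described above. The 30 bases around the annotated starts of ribosomal genes are therefore shown, beside those of the long gene Lrrk2, which fell. They come from RefSeq on GRCm38.p6, with 15 bases before and 15 from the start onward. Capitals mark an unbroken run of at least 6 C or T letters that touches the stretch from 2 bases before to 2 bases after the start.
Rplp2 (chr7:141447636-141447665, plus strand): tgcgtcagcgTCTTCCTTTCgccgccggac
Rpl27 (chr11:101442230-101442259, plus strand): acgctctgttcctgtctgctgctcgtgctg
Rpl26 (chr11:68901551-68901580, plus strand): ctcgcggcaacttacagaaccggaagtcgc
Lrrk2 (chr15:91673209-91673238, plus strand): gcagcggaggcggccgagcagctctgagag
Of the 4 windows shown only that of Rplp2 held a run at the annotated start, of 10 letters. Over all protein-coding genes tested, 11820 of 15261 matched an entry, and 13.3% of these held a run. The share was 35.7% of 56 matched ribosomal protein genes. It was 21.2% of 137 matched genes called higher and 12.4% of 549 matched genes called lower. Without the ribosomal genes it was 15% of 100 matched genes called higher. These shares describe annotated starts on the transcribed strand and are given with no test.

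Some of the nuclear-encoded genes of the respiratory chain, the mitochondrial ribosome and the proteasome were higher, and most of these passed no fold threshold. Complex I takes electrons from NADH, and 35 of its 36 subunit genes had a positive fold change, with a median of 0.68 on the log2 scale. At an adjusted p under 0.05 with any fold change 10 of them were higher, against 3.76% of all genes, and 0 passed the fold threshold. Summed complex I levels were 2731, 3803, 3329 and 4684 CPM in ad-lib and 4571, 4092, 6008 and 7807 CPM in TAN libraries, which overlapped. Ndufa6, an accessory subunit, was at 87.5, 120, 97.7 and 137 CPM in ad-lib and at 208, 201, 230 and 220 CPM in TAN libraries. Here all TAN values were above all ad-lib values, with a log2 fold change of 0.96 ± 0.24 (SE, adjusted p 0.0107). Ndufb7 rose by 0.91 ± 0.23 (SE, adjusted p 0.0119).

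The complexes further down the chain behaved alike. Of 36 subunit genes of complexes III, IV and V, 15 were higher in this looser test and all 36 fold changes were positive, with a median of 0.73. The ATP synthase genes Atp5h and Atp5g2 rose by 0.97 ± 0.24 and 0.80 ± 0.19 (SE), with adjusted p-values of 0.01002 and 0.00971. Of 77 mitochondrial ribosome genes 25 were higher, with a median of 0.59, and of 38 proteasome genes 17 were higher and 1 was lower, with a median of 0.54. Summed proteasome levels were 3458, 4124, 3691 and 4345 CPM in ad-lib and 5838, 5787, 5314 and 5910 CPM in TAN libraries, which did not overlap, unlike those of the ribosome. Psmb9, a subunit of the immunoproteasome of lymphoid and interferon-treated cells, was called, with 1.02 ± 0.33 (SE, adjusted p 0.0399), and its values overlapped. That call was lost without any one library other than TAN 3 or TAN 4. Without TAN 1 and TAN 2 the numbers higher were 18, 23, 24 and 10 in the 4 lists in the order given, and without TAN 3 and TAN 4 they were 2, 7, 17 and 13. Leaving out 1 library gave 2 to 11, 4 to 14, 5 to 19 and 5 to 16. The rise was not particular to 8 PM. The median TAN effects of the 4 lists were 1.16, 1.12, 0.74 and 0.59 at 4 PM and 0.80, 0.85, 0.60 and 0.47 at 12 AM. In the libraries labelled 8 AM they were -0.37, -0.39, -0.21 and -0.11, and over the mean of the other 5 times 0.31, 0.35, 0.16 and 0.14. The length correction gave 3, 4, 11 and 6, with the median of complex I at 0.20, and the fit of the 8 libraries alone gave 0 in each list. Genes encoded in mitochondrial DNA did not follow. Of 13 tested, 0 were higher and 1 was lower (7.69%, against 5.84% of all genes). This was mt-Nd5, a complex I subunit, at 1909, 2079, 2308 and 2407 CPM in ad-lib and at 520, 427, 489 and 1159 CPM in TAN libraries. It fell by 1.75 on the log2 scale (SE 0.58, adjusted p 0.0429), and the call was lost without any one library other than TAN 4 (-1.80 to -1.58).

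**Figure D3:**
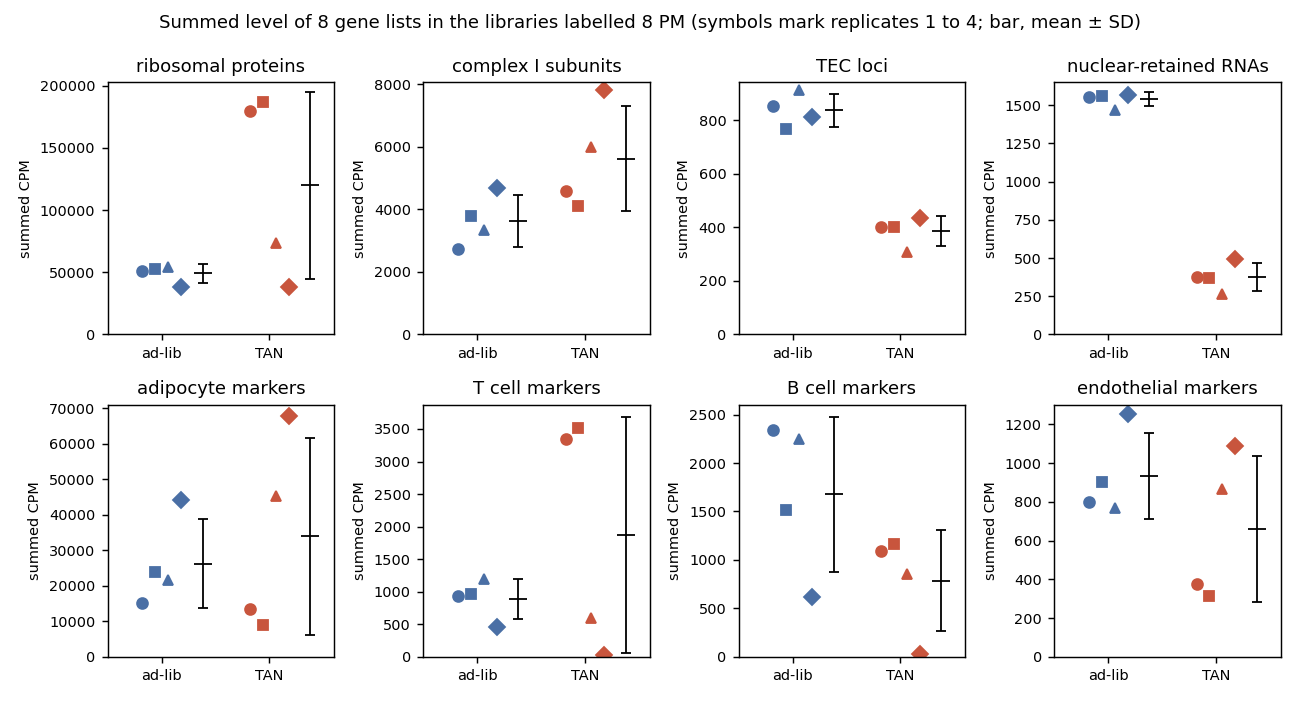
Summed CPM of 8 gene lists in each ad-lib and TAN library labelled 8 PM, on linear vertical axes that start at 0 and differ between panels; symbols mark libraries 1 to 4 and bars are means with SD. Ribosomal and T cell sums are highest in TAN libraries 1 and 2, adipocyte sums in TAN libraries 3 and 4, whereas TEC and nuclear-retained sums are lower in all 4 TAN libraries than in any ad-lib library.

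Most genes with the lowest adjusted p-values were lower in TAN. Lrrk2 (ENSMUSG00000036273, chr15:91673175-91816120), a large kinase expressed in immune and other cells, was at 96.4, 66.9, 93.3 and 49.2 CPM in ad-lib and at 11.8, 19.3, 11.7 and 16.3 CPM in TAN libraries. The groups lay far apart, and the log2 fold change was -2.37 ± 0.35 (SE, adjusted p 4.31e-04). Postn, which encodes the matrix protein periostin, was at 62.3, 124, 103 and 216 CPM in ad-lib and at 19.3, 16.0, 33.7 and 42.1 CPM in TAN libraries, a log2 fold change of -2.19 ± 0.37 (SE, adjusted p 6.56e-04). Nbn, part of the complex that senses DNA breaks, and Tubgcp5, part of the gamma-tubulin ring, stood at -1.51 ± 0.23 and -1.495 ± 0.24 (SE), each with an adjusted p of 4.68e-04. Supt16, a subunit of the histone chaperone FACT, stood at -1.499 ± 0.25 (SE, adjusted p 6.56e-04). Ago4, an Argonaute gene, and Ints2, an Integrator subunit gene, stood at -1.48 ± 0.23 and -1.25 ± 0.21 (SE). The zinc finger gene Zbtb37 stood at -2.57 ± 0.43 and the interferon-inducible Samd9l at -2.25 ± 0.39 (SE), with adjusted p-values of 6.20e-04 and 8.91e-04.

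Some genes with single roles in protein folding and signalling fell as well. Hsp90b1, the HSP90 chaperone of the endoplasmic reticulum, was at 328, 330, 309 and 310 CPM in ad-lib and at 157, 162, 114 and 180 CPM in TAN libraries. Within each diet the values were close, and the log2 fold change was -1.06 ± 0.19 (SE, adjusted p 9.38e-04). Atf6, a sensor of unfolded protein, fell with it, by 1.37 on the log2 scale (SE 0.27, adjusted p 0.00276), while Chac1, a target of the integrated stress response, rose by 1.69 ± 0.57 (SE, adjusted p 0.0464). These 3 were the only calls among 20 stress genes, 10% lower and 5% higher, against 5.84% and 1.19% of all genes. Rictor, the defining subunit of mTORC2, was the only call among 25 insulin signalling genes, with -1.09 ± 0.35 (SE, adjusted p 0.0393). Rb1cc1, which starts autophagosome formation, was the only call among 24 autophagy genes, with -1.51 ± 0.38 (SE, adjusted p 0.0109). The shares lower in the insulin signalling and autophagy lists, 4% and 4.17%, were under the 5.84% of all genes. Ebf1, an adipogenic transcription factor, stood at -1.19 ± 0.36 (SE, adjusted p 0.0281). Without 1 library at a time the call was lost in 6 of 8 fits for Chac1 and in 5 of 8 for Rictor and for Ebf1, and Hsp90b1 fell below the fold threshold without TAN 3 (-0.94).

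Several genes rose in all 4 TAN libraries, which the naming rule required of genes ranked by fold change or adjusted p. The spread was small for Wdr83os and wide for Pcsk4. Wdr83os (ENSMUSG00000059355, chr8:85080740-85082339), a small subunit of a chaperone complex of the endoplasmic reticulum, was at 31.7, 34.7, 33.0 and 33.6 CPM in ad-lib and at 75.8, 78.0, 75.0 and 67.8 CPM in TAN libraries. Neither diet varied much, and the log2 fold change was 1.16 ± 0.21 (SE, adjusted p 0.00142). Txndc17, a thioredoxin-like protein, rose by 1.31 ± 0.27 (SE, adjusted p 0.00303). Sertad1, a small transcriptional coregulator, was at 18.0, 17.7, 17.8 and 13.3 CPM in ad-lib and at 60.1, 43.7, 35.2 and 34.9 CPM in TAN libraries, with a log2 fold change of 1.38 ± 0.25 (SE, adjusted p 0.00125). Srm, spermidine synthase, rose by 1.004 ± 0.19 (SE, adjusted p 0.00207). The histone variant gene H2afv and the cold-inducible RNA-binding protein gene Rbm3 rose by 1.10 ± 0.23 and 1.05 ± 0.29 (SE). Fits without 1 library lost the call of Rbm3 in 4 of 8, of Srm in 2 and of H2afv in 1. Pcsk4, a proprotein convertase, had the lowest adjusted p among higher genes, 4.68e-04, at 3.37, 2.48, 3.32 and 4.78 CPM in ad-lib and 9.11, 7.42, 23.1 and 44.4 CPM in TAN libraries. Its log2 fold change was 2.59 ± 0.41 (SE). The mitochondrial carrier gene Slc25a29 rose by 1.53 ± 0.32 (SE, adjusted p 0.00371). Gapdh was counted at 2.83 to 4.05 CPM in ad-lib libraries and at 104, 47.1, 2.51 and 2.08 CPM in TAN libraries, so its call (log2 fold change 3.50 ± 0.96, SE, adjusted p 0.0183) rests on TAN 1 and TAN 2. Gapdh shares sequence with many pseudogenes, and this value is uncertain.

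RNAs that remain in the nucleus were lower in sum in all 4 TAN libraries, and Malat1 and Neat1 made up most of the sum. The list of 10 summed to 1556, 1563, 1472 and 1566 CPM in ad-lib and to 379, 369, 262 and 493 CPM in TAN libraries. Malat1 (ENSMUSG00000092341, chr19:5795690-5802672), a long noncoding RNA of nuclear speckles, was at 631, 799, 567 and 622 CPM in ad-lib and at 98.3, 101, 59.0 and 124 CPM in TAN libraries. The groups did not come near each other, and the log2 fold change was -2.78 ± 0.57 (SE, adjusted p 0.00351). Neat1, the scaffold of paraspeckles, was at 756, 582, 707 and 766 CPM in ad-lib and at 138, 173, 82.6 and 222 CPM in TAN libraries, with a log2 fold change of -2.19 ± 0.49 (SE, adjusted p 0.00558). Of 10 nuclear-retained RNAs 4 were called lower, against 5.84% of all genes, and all 10 fold changes were negative. The other called members were Kcnq1ot1, an antisense transcript whose reads could not be told apart from those of its sense partner, and Miat, which had no count in TAN libraries and was at least 2.52-fold lower. In 4 and 5 of the 8 fits without 1 library these latter calls were lost. The list's median was -1.89, or -1.54 with genes at 0 set at their bound. With the length correction the median was -0.85 and 3 genes were lower, and in the fit of the 8 libraries alone 2 were lower.

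Loci of the provisional annotation class TEC, which await experimental proof as genes, were also lower in sum. Of 702 tested, 130 were called lower, against 5.84% of all genes, 0 were called higher, and 572 fold changes were negative. The median was -2.09, or -0.83 with the 238 loci at 0 in one diet set at their bound. Leaving out 1 library gave 52 to 134 loci lower. The fit of the 8 libraries alone gave 0, and a minimum of 10 counts in every library gave 2. The share of all counts on TEC loci was 0.0807% to 0.104% in ad-lib and 0.0294% to 0.0394% in TAN libraries, which did not overlap (exact permutation test of the means, two-sided, p 0.0286, the smallest that 70 splits allow, adjusted p 0.05 over 7 measures). Gm44164 on chromosome 6 had 1.304 to 2.39 CPM in ad-lib libraries and no count in TAN libraries, at least 13.3-fold lower. Among 858 antisense genes 77 were lower and 0 higher, and among 858 lincRNAs 78 were lower and 3 higher, shares of 8.97% and 9.09% lower against 5.84% of all genes. Antisense loci and their partners cannot be told apart here, since the sources used do not say which libraries kept the strand. Far1os, antisense to a fatty acyl-CoA reductase gene, was at 0.565 to 3.18 CPM in ad-lib libraries and had no count in TAN libraries, at least 15.6-fold lower.

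Of 26 splicing factors 6 were lower, against 5.84% of all genes, and 0 higher, with a median of -0.64. Rbm5, Srsf11 and Luc7l3 stood at -1.39 ± 0.35, -1.31 ± 0.34 and -1.28 ± 0.34 (SE), with adjusted p-values of 0.0121, 0.0143 and 0.0163. Of 34 chromatin regulators 6 were lower, against the same 5.84%, and 0 higher, with a median of -0.49. With the length correction 1 gene of each list was lower, and the medians were -0.31 for splicing factors and 0.10 for chromatin regulators. The fit of the 8 libraries alone gave 0 and 2. The median TAN effects of the splicing and chromatin lists were -0.55 and -0.98 at 4 PM and -0.42 and -0.84 at 12 AM. Over the mean of the other 5 times they were -0.13 and -0.10. Atrx, a chromatin remodeler, was at 222, 223, 252 and 169 CPM in ad-lib and at 106, 109, 51.8 and 51.7 CPM in TAN libraries, and every TAN value was below every ad-lib value. Its log2 fold change was -1.45 ± 0.42 (SE, adjusted p 0.0251). Kmt2e and Tet2, a chromatin reader and a DNA demethylase, stood at -2.42 ± 0.68 and -1.59 ± 0.50 (SE). Without TAN 1 and TAN 2 there were 13 splicing and 13 chromatin genes lower, and without TAN 3 and TAN 4 there were 0 and 1. Leaving out 1 library gave 2 to 7 splicing genes and 1 to 4 chromatin genes, and the calls of Atrx and Tet2 were lost in 3 and 7 of those 8 fits.

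Direction followed transcript length across all protein-coding genes. The median log2 fold change was 0.57 for genes of up to 1 kb, 0.20 for those between 2 and 3 kb, -0.07 between 4 and 6 kb and -0.55 above 8 kb, on the gene lengths of the deposited table. Of 2526 genes above 8 kb, 339 were lower and 0 higher, and of 461 genes up to 1 kb, 24 were higher and 7 lower. The median length of protein-coding genes called higher was 1840 bases and of those called lower 7600 bases, against 4222 bases for all tested. GC content ran the other way, with medians of -0.29 below 40% GC and 0.53 above 60% GC. Genes above 8 kb took 15.2% to 16.6% of all counts in ad-lib and 9.46% to 10.3% in TAN libraries (exact permutation test, two-sided, p 0.0286, adjusted p 0.05). The number of genes with a count was 21364 to 22595 in ad-lib and 15271 to 18114 in TAN libraries. Of the 40 libraries of other times 4 had a share above 8 kb as low, 2 of each diet. RNA integrity numbers were not analysed here. The part of length in the gene results was not tested apart from a fit with a length correction, which gave 84 genes higher and 812 lower, with 33 and 729 shared with the calls above.

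**Figure D4:**
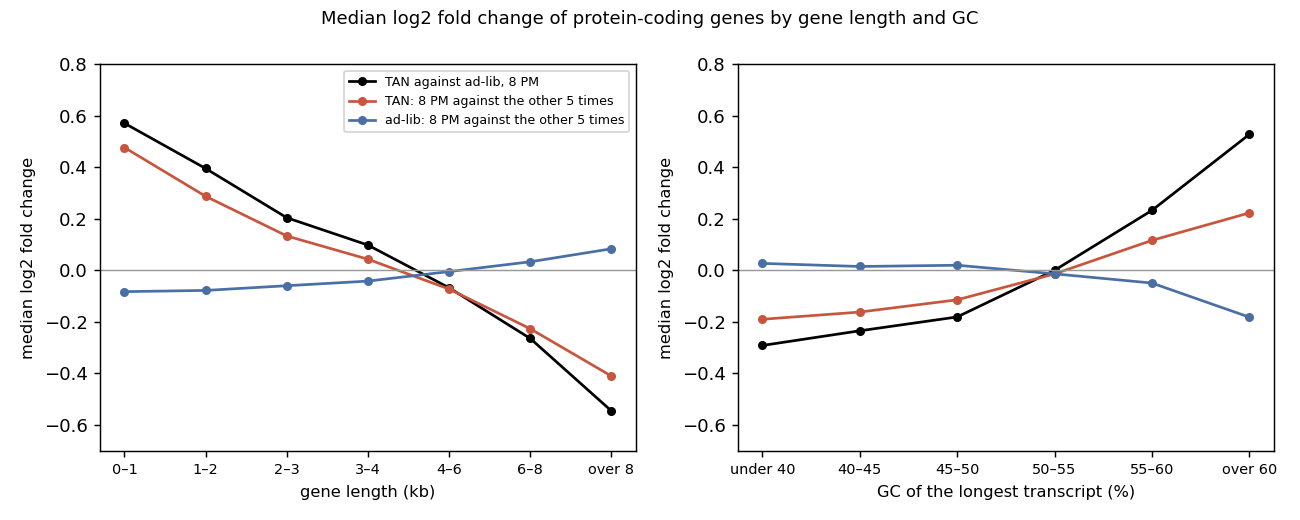
Median log2 fold change of protein-coding genes in bins of gene length (kb) and of transcript GC content (%), for TAN against ad-lib at 8 PM, TAN at 8 PM against the other 5 TAN times, and ad-lib at 8 PM against the other 5 ad-lib times. The first falls from 0.57 in the shortest bin to -0.55 above 8 kb, the ad-lib line stays between -0.08 and 0.08 across lengths.

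The make-up of cell types differed between libraries and within the TAN group. In bulk tissue fewer cells of a type and less RNA per cell cannot be told apart. The 10 adipocyte markers summed to 15153, 23780, 21501 and 44117 CPM in ad-lib and to 13541, 9000, 45160 and 67840 CPM in TAN libraries, and 0 of them were called. The 14 T cell markers, with a median of 1.11, summed to 929, 961, 1203 and 465 CPM in ad-lib and to 3349, 3516, 595 and 30.4 CPM in TAN libraries. Cd3d, a chain of the T cell receptor complex, was at 424, 442, 71.3 and 2.59 CPM in TAN libraries and at 39.3 to 87.1 CPM in ad-lib libraries. Neither list moved beyond the spread, since TAN 1 and TAN 2 lay on one side and TAN 4 on the other. B cell markers, of which all 13 were negative and 0 called, summed to 2338, 1520, 2248 and 613 CPM in ad-lib and to 1093, 1163, 858 and 34.1 CPM in TAN libraries.

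Of 196 immunoglobulin segments tested, the gene pieces joined in B cells, 28 were called lower, against 5.84% of all genes, and 0 higher. With at least 10 counts in every library 0 were lower, and in the fit of the 8 libraries alone 1 was. The median was -1.91, or -1.55 with segments at 0 set at their bound, and at the other 5 times it was -1.46. The 28 were 23 variable and 5 joining segments, and 0 of 13 constant-region genes were called. Summed over all segments, ad-lib libraries held 3763, 4120, 2968 and 1408 CPM. TAN libraries held 1773, 1811, 2855 and 322 CPM, so the sums overlapped. Igkj3, a kappa joining segment, was at 7.50, 6.23, 7.07 and 1.78 CPM in ad-lib libraries and had no count in any TAN library, at least 38.7-fold lower. Leaving out 1 library gave 14 to 38 segments lower. Segments share sequence with each other, so single values are uncertain. Of 101 T cell receptor segments 3 were lower (2.97%, under the 5.84% of all genes) and 0 higher.

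Markers of vessels, stroma and resident immune cells had few calls, all lower. Of 14 endothelial markers 13 were negative, with a median of -0.82, and 2 were called lower, against 5.84% of all genes. The fit of the 8 libraries alone gave 0 and the length correction 1. Kdr, a VEGF receptor, was at 53.4, 81.1, 60.1 and 112 CPM in ad-lib and at 16.9, 15.1, 49.4 and 51.9 CPM in TAN libraries, a log2 fold change of -1.20 ± 0.38 (SE, adjusted p 0.0367). Cdh5, the endothelial cadherin, stood at -1.23 ± 0.42 (SE, adjusted p 0.0488). Without TAN 1 and TAN 2 no endothelial marker was called, and leaving out 1 library gave 0 to 6. The call of Kdr was lost in 5 of those 8 fits and that of Cdh5 in 7. Pdgfra, a receptor of adipocyte progenitors, stood at -1.07 ± 0.32 (SE, adjusted p 0.0259). It was 1 of 2 calls among 11 progenitor and stroma markers (18.2% lower), whose median was -0.30. Mrc1, the mannose receptor of tissue macrophages, was at 72.7, 99.1, 76.4 and 90.2 CPM in ad-lib and at 7.49, 9.87, 51.6 and 44.4 CPM in TAN libraries. It was the only one of 14 macrophage markers called (7.14% lower), with -1.58 ± 0.42 (SE, adjusted p 0.0156), and was lowest in TAN 1 and TAN 2. Its call was lost without either of them (-1.29 and -1.25), and that of Pdgfra in 4 of the 8 fits without 1 library. The mast cell gene Ms4a2, 1 of 8 markers, was at 1.09 to 3.71 CPM in ad-lib and at 0, 0, 0.426 and 0.169 CPM in TAN libraries. Skeletal muscle markers, of which 0 of 13 were called, varied widely, from 41.3 to 1027 CPM in ad-lib and from 31.2 to 674 CPM in TAN libraries.

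The libraries that set 8 PM apart were those of TAN mice. Against the mean of the other 5 times of the same diet, 1049 genes were higher (5.25%) and 1442 lower (7.22%) in TAN at 8 PM. These counts depended on the pair of TAN libraries. Without TAN 1 and TAN 2 they were 128 and 320, and without TAN 3 and TAN 4 they were 2515 and 4328. In ad-lib at 8 PM 1 gene was higher (0.00501%) and 0 were lower in edgeR, with 152 and 86 at an unadjusted p under 0.05 and 1 and 4 in DESeq2. The TAN effect at 8 PM differed from its mean at the other 5 times in 244 genes upward (1.22%) and 632 downward (3.16%). Among the 76 cytosolic ribosomal genes 59 were higher in this test. Against the neighbouring times the differences were few in the main fit. There were 3 upward (0.015%) and 4 downward (0.02%) against 4 PM, where an unadjusted p under 0.05 gave 1948 and 1493. Against 12 AM they were 2 (0.01%) and 8 (0.04%), with 683 and 974. Without TAN 3 and TAN 4 there were 2204 and 3836 against 4 PM and 752 and 2836 against 12 AM. Without TAN 1 and TAN 2 there were 0 in each, and DESeq2 on all libraries gave 359 and 242 against 4 PM and 18 and 73 against 12 AM. At 4 PM itself 586 genes were higher (2.93%) and 1485 lower (7.43%) in TAN. The comparisons of one time with the mean of others share libraries.

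Few genes marked the TAN libraries at 8 PM against all others. Over the 19977 genes, the 4 TAN libraries lay below all other 44 libraries in 14 genes, of which 9 were called lower, and above them in 3, of which 0 were called. The ad-lib libraries at 8 PM lay outside the other 44 in 0 genes. Besides Clock and Angptl4, the 14 included Zeb2, a transcription factor of mesenchymal and myeloid cells, and Dtx4, an E3 ligase, both named here after their values were seen. Zeb2 (ENSMUSG00000026872) was at 191, 195, 185 and 268 CPM in ad-lib and at 48.5, 39.8, 91.2 and 98.5 CPM in TAN libraries, while the lowest library of another time held 122 CPM. Its log2 fold change was -1.59 ± 0.33 (SE, adjusted p 0.00361). Dtx4 was at 9.55 to 11.6 CPM in TAN and at 12.6 to 31.5 CPM in ad-lib libraries, with -1.26 ± 0.31 (SE, adjusted p 0.0111). Kxd1, of the complex that positions lysosomes, and Zmynd19 were 2 of the 3 genes above all others, also singled out after their values were seen. Kxd1 was at 48.3 to 63.3 CPM in ad-lib and at 87.4 to 99.5 CPM in TAN libraries, and its log2 fold change of 0.72 ± 0.17 (SE, adjusted p 0.00926) was under the fold threshold.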

How the data were processed

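Poly-A RNA from iWAT was reverse transcribed from random hexamers and sequenced on Illumina instruments. The authors deposited raw counts per gene for all 48 libraries without normalization, and these counts were used as deposited. Group and time were taken from the sample labels, and 0 columns of sample values were unused. The submitters' processing notes name TopHat 1.3.3, DESeq2 1.20.0, limma and edgeR and the builds mm9, mm10 and GRCm38, with no role. The counting tool and strand setting are not given in the sources used here. Of the genes shared with GENCODE M21 on GRCm38, 98.3% have the same chromosome, start and end. A second deposited table holds mean values already averaged over libraries and was not used.

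The 8 libraries labelled 8 PM were compared in edgeR 4.0.16 (R 4.3.3), with filterByExpr at a minimum count of 10, TMM scaling and 1 robust quasi-likelihood fit of 12 groups (each diet at each time, 48 libraries) with a shared estimate of the spread. The same model gave the tests between times. Benjamini-Hochberg adjustment ran over all 19977 genes tested. CPM used TMM-scaled totals. A count of 0 allows up to 3 counts, 0.120 to 0.169 CPM in TAN libraries, and such floors cover counting error only. Values per library were compared by exact permutation tests. DESeq2 1.42.0, voom of limma 3.58.1, other filters, scalings and covariates, and fits without libraries were alternatives. Scripts were tested on simulated counts.

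Named genes were, among called protein-coding genes with at least 10 counts in each library of the higher group, no overlap and no clone name, the 10 with the highest and lowest fold changes and the 10 lowest adjusted p-values in each direction. To these came all core clock and metabolic elasticity genes, up to 4 called members of each other list, or up to 2 with the lowest p where none was called, and the 8 called genes with the lowest p for the difference from other times. Part of these are given in the text. The comparison, the lists and the rule were chosen with earlier results of these data known.

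Same-numbered libraries of the diets did not deviate together in the way a pairing would give, with correlations over 0.1 in 2 of 4 pairs, so the main model has no block.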

Additional observations from a re-analysis of the deposited data

Results flagged for a closer look

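Single libraries stood far from the other 3 of their diet in 15 of 314 groups of 4 values examined (a gap over the range above Dixon's 95% critical value), and chance gives about 1 in 20. Ad-lib library 4 accounted for 9 of them. It was lowest for Rplp2 (512 CPM), Rpl29 (195 CPM) and Sertad1 (13.3 CPM). It was highest for Pnpla2, the main triglyceride lipase (1262 CPM), and Zeb2 (268 CPM). Its summed levels were also highest for sugar sensing and entry (3583 CPM), lipolysis (8926 CPM), adipogenic factors (1640 CPM) and glucocorticoid targets (1290 CPM). Ad-lib library 2 was lowest for Ciart (1.27 CPM) and ad-lib library 3 for summed nuclear-retained RNAs (1472 CPM). TAN library 4 was highest for mt-Nd5 (1159 CPM) and for the TEC locus Gm43682 (0.169 CPM, with 0 in the other 3). TAN library 3 was highest for summed mast cell markers (299 CPM), and TAN library 2 was lowest for summed erythrocyte markers (407 CPM).

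The TAN effect at 8 PM differed from its mean at the other 5 times, at an edgeR adjusted p under 0.05 for the difference, in 47 of 98 genes examined. The 8 genes with no count in any TAN library were left out of this count. Over all 19977 genes tested, 1211 differed in this way (6.06%). Many of the 98 were chosen for their call at 8 PM, and some for this difference itself. A high share among them was therefore built in. Of the 47, 29 differences were negative and 18 positive, all given on the log2 scale as the effect at 8 PM minus the mean of the others. In the clock they were -1.60 for Clock and -1.57 for Arntl.

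Among lipid genes they were -2.25 for Acly, -1.73 for Acss2, -1.85 for Scd2, -2.07 for Lpl, -2.10 for Angptl4 and -1.14 for Hadha. Of these genes only Angptl4 was called at 8 PM itself. For Acly, Acss2 and Scd2 the effect at 8 PM passed no threshold.

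For translation, respiration and proteasome genes they were 1.57 for Rplp2, 1.59 for Rpl26, 1.65 for Rpl27, 1.45 for Rpl29, 0.78 for Atp5g2 and 1.24 for Psmb9. For mt-Nd5 the value was -2.002.

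Among nuclear-retained RNAs and further genes called lower they were -2.80 for Malat1, -2.26 for Neat1, -2.15 for Lrrk2, -1.63 for Nbn and -1.40 for Tubgcp5. They were -1.35 for Ago4, -2.43 for Zbtb37, -2.30 for Postn, -1.38 for Supt16 and -1.28 for Ints2. They were -1.89 for Samd9l, -1.03 for Hsp90b1, -1.32 for Atf6, -1.25 for Rbm5, -1.20 for Srsf11, -1.45 for Rb1cc1, -1.44 for Zeb2 and -1.22 for Dtx4. The fitted values of -5.10 for Gm43682 and -3.78 for Ms4a2 rest on few counts in TAN libraries and depend on the model's prior count.

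The other positive differences were 1.58 for Pcsk4, 2.86 for Trnp1, 1.85 for Samd1, 1.61 for Slc25a29, 1.19 for Wdr83os, 1.23 for Txndc17, 1.83 for Sertad1, 0.83 for Srm, 1.28 for H2afv, 1.26 for Rbm3, 1.41 for Ier3 and 0.75 for Zmynd19.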

How the results depend on the processing

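Counts are given as genes higher and lower, first at 8 PM (237 and 1167) and then for the effect at 8 PM against the other 5 times (244 and 632). Unadjusted p-values with the fold rule gave 501 and 2475, then 648 and 1820. Adjusted p-values with any fold gave 752 and 1581, then 415 and 796. No filter gave 102 and 808, then 88 and 293, and at least 10 counts in every library gave 378 and 491, then 377 and 320. With the lymphocyte marker level as a covariate there were 383 and 1934, then 395 and 1351, and with the TEC share 20 and 40, then 5 and 18. The TEC share did not overlap between the diets at 8 PM, so this covariate takes up part of the comparison. A separate fit of the 8 libraries gave 5 and 50. Voom gave 169 and 2351, then 152 and 1717, and DESeq2 419 and 1477, then 429 and 933. A length offset gave 84 and 812, then 42 and 328, and a GC offset 136 and 1028, then 143 and 564. The replicate block gave 191 and 1120, then 190 and 546. The numbers did not pair the libraries, with correlations of -0.19 to 0.52 and 2 of 8 libraries correlating best with their own number. RLE scaling gave 308 and 1108. Of the gene lists, the TEC covariate left calls in TEC loci (4) and core clock genes (2), and 0 in the ribosome, respiratory chain, mitochondrial ribosome, proteasome, nuclear-retained, immunoglobulin, splicing, chromatin and endothelial lists. Except where a value shows it, the cause of these changes was not tested.

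Leaving out 1 library gave 90 to 447 higher and 645 to 1698 lower, then 33 to 510 and 225 to 1522. For the higher genes at 8 PM the count moved by over 1.5 times without each library other than TAN 3 (90, without ad-lib 3, to 447, without TAN 4), and for the lower genes without ad-lib 1 (744), ad-lib 3 (645) and TAN 1 (746). For the effect against other times it moved so far without every library, other than TAN 3 for the higher genes. Without TAN 1 and TAN 2 there were 504 and 1118, then 120 and 372, and without TAN 3 and TAN 4 865 and 3380, then 951 and 3321. The latter values rest on 2 TAN libraries that resemble each other. TAN at 8 PM against other TAN times (1049 and 1442) gave 128 and 320 without TAN 1 and TAN 2, 2515 and 4328 without TAN 3 and TAN 4, and 514 and 2863 with voom. The effect against 4 PM (3 and 4) gave 0 and 0, 2204 and 3836, and 8 and 85 in the same settings, and 359 and 242 with DESeq2. Against 12 AM (2 and 8) these were 0 and 0, 752 and 2836, 1 and 6, and 18 and 73. Ad-lib at 8 PM against other ad-lib times (1 and 0) gave 1 and 4 with DESeq2. The libraries labelled 8 AM (2 and 1) gave 1 and 1 without animals 1 and 2 of TAN at 8 PM or without 3 and 4, 0 and 0 with voom, and 11 and 29 with DESeq2.

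For 98 genes 2134 values were recomputed, of which 1743 kept direction and side of the threshold, 319 lost a call, 31 gained one and 41 changed sign. The 1743 include genes not called in the main fit, and the settings differed widely. Of the 98 genes, 52 lost a call in the fit of the 8 libraries alone, 47 with the TEC covariate and 32 with the length offset. Lrrk2 kept its call in all 22 alternatives, and Clock lost it only with the length offset. Signs changed without TAN 1 and TAN 2 for Cry2 (0.20), Gapdh (-0.58), Cd3d (-0.86) and Zap70 (-0.99). Without TAN 3 and TAN 4 they changed for Nr1d1 (-0.22), Nr1d2 (-0.62), Acly (-0.97), Acss2 (-0.90), Elovl6 (-0.48), Me1 (-1.13), Thrsp (-1.43), Lep (-2.62), Cfd (-0.76) and Pnpla2 (-1.03). With the TEC covariate they changed for Per2 (0.91), Per3 (0.40), Thrsp (-0.42), Lep (-0.27), Cfd (-0.18), Rictor (0.063), Atrx (0.092), Kmt2e (0.11) and Tet2 (0.19). With voom they changed for Nr1d2 (-0.030), Acly (-0.0649), Thrsp (-0.074) and Lep (-0.63). With the lymphocyte covariate they changed for Acly (-0.21), Acss2 (-0.15), Thrsp (-0.10) and Lep (-0.23). Over the fits without 1 library, values ran from -0.25 to 0.23 for Nr1d2, -0.45 to 0.44 for Acly, -0.29 to 0.47 for Acss2, -0.58 to 0.77 for Thrsp, -0.56 to 0.87 for Lep and -0.049 to 0.92 for Pnpla2.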

Other observations

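Zinc finger genes, picked by the symbol Zfp after values were seen, had 41 of 364 tested members lower (11.3%, against 5.84% of all genes) and 3 higher, with a median log2 fold change of -0.52. At the other 5 times their median was -0.09. Processed pseudogenes went in both directions, with 53 of 1015 higher (5.22%, against 1.19% of all genes), 41 lower (4.04%) and a median of 0.36. Of 78 sense-intronic loci 15 were lower (19.2%, against 5.84% of all genes) and 0 higher. Their median was -2.28, or -1.02 with loci at 0 set at their bound.

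Several protein-coding genes were counted in ad-lib libraries and in no TAN library at 8 PM. Wnt2b, a Wnt ligand, was at 1.12 to 2.39 CPM in ad-lib libraries, and it was at least 10.7-fold lower. Ryr3, a calcium release channel, was at 0.565 to 4.77 CPM, and it was at least 16.9-fold lower. Of the 408 genes called lower with no count in TAN libraries, 125 were protein coding. Conversely, 5 genes called higher had no count in any ad-lib library.

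Of 20 interferon-stimulated genes 2 were lower (10%, against 5.84% of all genes) and 0 higher, with a median of -0.45. Of 22 immediate early genes 1 was higher (4.55%, against 1.19% of all genes). This was Ier3, with 1.17 ± 0.38 (SE, adjusted p 0.0399), a call lost in 6 of the 8 fits without 1 library. Immediate early genes summed to 603 to 885 CPM in ad-lib and to 1300, 1469, 765 and 635 CPM in TAN libraries. The 16 collagen genes had 0 calls and a median of -0.30, and summed to 2002 to 3885 CPM in ad-lib and to 888, 674, 2844 and 4071 CPM in TAN libraries.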
